A study of Mus musculus with 12 samples.

Results

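Srebf1 and the enzymes that make and desaturate fatty acids were described as a set of 10 genes: Srebf1, Acly, Acss2, Acaca, Acacb, Fasn, Elovl6, Scd1, Scd2 and Scd4. They were chosen by gene symbol, and all 10 had a row among the 15838 genes of the deposited tables. RNA came from the corneal endothelium with its Descemet membrane, the basement membrane on the inner face of the cornea. The 12 libraries were 3 each from female WT, male WT, female KO and male KO mice, all 10 weeks of age. WT is Slc4a11+/+ and KO is Slc4a11-/-, a targeted deletion of several exons of Slc4a11 in C57BL/6 mice, with WT littermates from heterozygous crosses on a standard chow diet. Slc4a11 encodes a membrane transporter of the corneal endothelium whose loss causes congenital hereditary endothelial dystrophy, and the study asked whether the disease differs between the sexes. The sample records describe pooled membranes whereas the methods describe pairs of membranes from each mouse, so the number of mice behind a library is uncertain.

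The only measurement used here was the authors' mean log2 CPM of each gene over all 12 libraries. CPM is the read count of a gene scaled to the size of the library, and the mean mixes WT with KO and females with males. It carries no error, and values by library or group were not analysed here. The levels below therefore describe the 12 libraries as a whole, and no difference between genotypes or sexes was computed or tested.

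SREBP-1, the protein of Srebf1, is made as a precursor in the endoplasmic reticulum membrane. SCAP escorts it to the Golgi apparatus, where the proteases encoded by Mbtps1 and Mbtps2 release the part that enters the nucleus and activates genes of fatty acid synthesis, while INSIG proteins hold SCAP back. Acetyl-CoA, made from citrate by ACLY or from acetate by ACSS2, is carboxylated to malonyl-CoA by the acetyl-CoA carboxylases ACACA and ACACB. FASN builds palmitate from these units, ELOVL6 lengthens it to stearate, and the stearoyl-CoA desaturases, which in mice form a gene cluster, introduce a double bond to give monounsaturated fatty acids such as oleate.

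The desaturase genes are close paralogs, and the stretches they have in common bear on how reads of 50 bases can be assigned to each. Over their longest annotated coding sequences, Scd1 and Scd2 were 90.33% identical, Scd1 and Scd4 85.58%, and Scd2 and Scd4 84.11%. The longest run that Scd1 had letter for letter in common with Scd2 was 147 bases, and with Scd4 it was 116 bases. Both are printed 5′ to 3′ on the coding strand from GENCODE M21 transcripts. Capitals mark bases inside a 50-base window that Scd1, Scd2, Scd3 and Scd4 all hold, which were 61 bases of the first run and 59 of the second.
Scd1 and Scd2 in common: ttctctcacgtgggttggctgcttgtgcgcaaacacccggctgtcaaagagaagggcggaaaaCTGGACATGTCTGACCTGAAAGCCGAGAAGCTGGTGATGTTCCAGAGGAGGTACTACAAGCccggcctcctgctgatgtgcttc
Scd1 and Scd4 in common: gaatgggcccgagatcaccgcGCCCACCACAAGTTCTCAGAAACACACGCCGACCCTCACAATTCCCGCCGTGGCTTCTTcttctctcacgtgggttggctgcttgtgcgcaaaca

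In Scd1, the run in common with Scd2 covers coding bases 523 to 669. It lies on the minus strand of GRCm38, in exon 4 of 6 (chr19:44401693-44401805) and exon 5 (chr19:44400341-44400374). The run in common with Scd4 covers coding bases 442 to 557 and lies wholly in exon 4 (chr19:44401771-44401886). A read of 50 bases that falls inside the capitals has the same letters in all 4 genes.

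The labelled tissue was checked against marker genes. All 8 corneal endothelium markers had a row, with means from 567 CPM for Cdh2, the N-cadherin gene, to 7100 CPM for Col8a2, a collagen of Descemet membrane. Slc4a11 had a mean of 1676 CPM over WT and KO libraries together. This mean does not check the knockout label. The 4 markers of stromal keratocytes, the fibroblast-like cells of the adjoining stroma, were also high, from 342 CPM for Kera to 3796 CPM for Dcn. Their summed level was 5565 CPM beside 18677 CPM for the 8 endothelial markers, so the sums cover lists of unequal size. Per kilobase of the longest protein-coding transcript the list medians were close, at 383 CPM for keratocytes and 379 CPM for endothelium. Neither measure gives the share of RNA from each cell type. Epithelial markers ran from 0.995 CPM for Cdh1 to 34.8 CPM for Krt5. None of the 5 adipocyte markers had a row, and Awat2 and Mc5r, markers of meibomian and sebaceous gland cells, had none either. The 3 leukocyte markers ran from 1.91 to 19.8 CPM and the 2 vascular endothelium markers from 1.64 to 1.90 CPM. Of the Schwann cell markers, Mbp had 54.9 CPM and Sox10 1.07 CPM. The 5 pigment cell markers ran from 0.669 to 9.59 CPM, and Fa2h and Far2 of the gland list stood at 7.03 and 1.58 CPM. Of the smooth muscle markers, Myh11 had 206 CPM and Acta2 49.8 CPM, while Des had no row. What each of these cell types contributed to the levels of the lipid genes was not tested. In a mean of bulk RNA, fewer cells of a type and less RNA per cell cannot be told apart.

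As a set, the 10 genes had a median of 5.44 log2 CPM, beside 3.76 for all genes. They ran from 10.5 CPM for Scd4 to 453 CPM for Scd2, and 9 of the 10 lay above the median of all genes. Scd2 and Srebf1 were in the top 10% of genes, and Fasn and Acly followed at the 89.9th and 87.8th percentiles. Only Scd4, at the 45.4th percentile, lay under the median, and Acacb was just above it at the 50.7th.

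**Figure D1:**
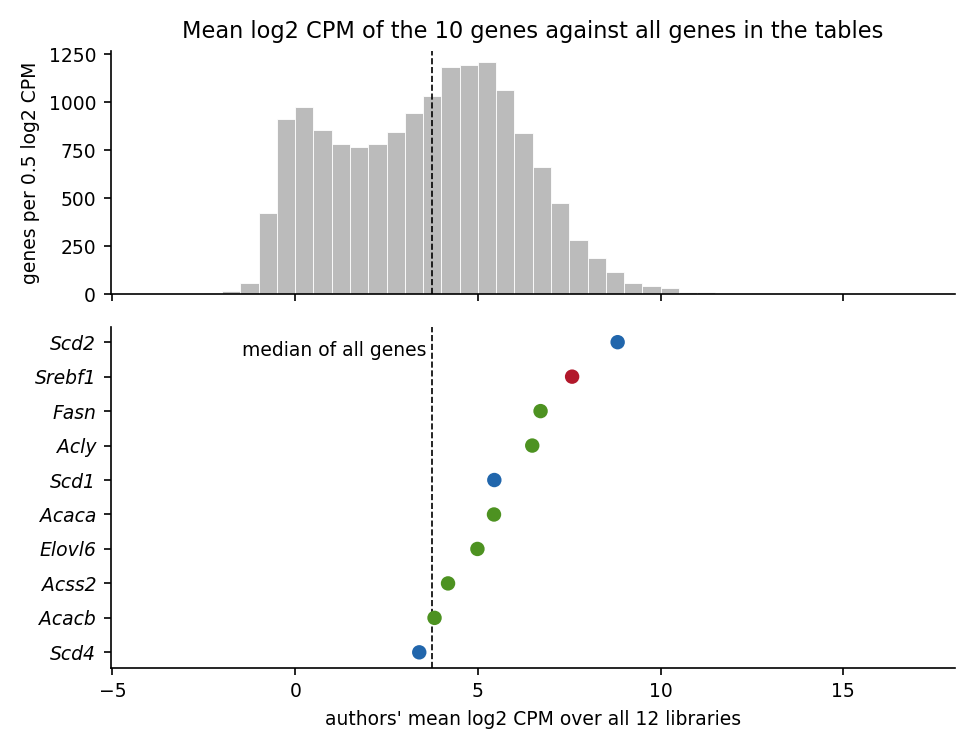
The upper panel shows how many of the 15838 genes fall in each interval of the authors' mean log2 CPM over all 12 libraries, and the lower panel shows that mean for each of the 10 genes (red, Srebf1; blue, desaturases; green, the other enzymes). The dashed line is the median of all genes at 3.76, and 9 of the 10 genes lie to its right.

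Longer transcripts give more reads, so the genes were compared with each other per kilobase of their longest annotated protein-coding transcript. On this scale the order was Scd2, Srebf1, Acly, Fasn, Scd1, Acss2, Elovl6, Acaca, Scd4 and Acacb, and the first was 52.0 times the last. The median of the 10 was 7.62 CPM per kilobase beside 4.91 for all genes with a length, and 7 of the 10 lay above it. With no error on the means, the order was set against 4 other definitions of length. Srebf1 above Acly, Scd1 above Acss2 and Scd4 above Acacb held under all 5 definitions. Scd2 above Srebf1 and Acly above Fasn held under 4 of the 5, and with the median length of annotated transcripts Srebf1 had 254 CPM per kilobase beside 119 for Scd2, and Fasn 121 beside 51.5 for Acly. Acss2 above Elovl6 held under 1 of the 5, and Fasn above Scd1, Elovl6 above Acaca and Acaca above Scd4 under 3 of the 5. That median length was 752 bases for Srebf1 and 869 for Fasn, shorter than their longest coding sequences of 3402 and 7512 bases. The reversals of Scd2 with Srebf1 and of Acly with Fasn came with this definition alone. In its middle the order changed under other definitions of length as well.

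**Figure D2:**
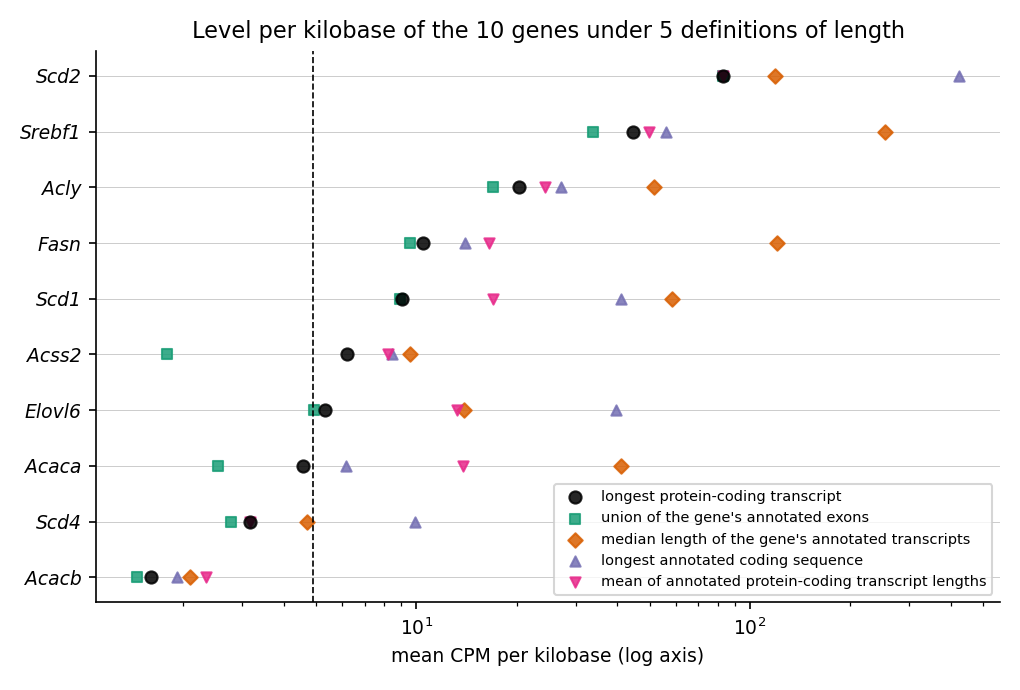
Mean CPM per kilobase (log axis) of each of the 10 genes under 5 definitions of gene length, given by the symbols, with the median of all genes for the longest protein-coding transcript as a dashed line. Acacb spans 1.46 to 2.35, whereas Acaca spans 2.54 to 41.0.

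Srebf1 (ENSMUSG00000020538, GRCm38 chr11:60199089-60222581, minus strand), the transcription factor of the set, had a mean of 7.58 log2 CPM, or 191 CPM. This placed it at the 95.5th percentile of all genes. Per kilobase of its 4299-base transcript of 19 exons the level was 44.5 CPM, second to Scd2. Srebf2, the paralog known mainly for genes of cholesterol synthesis, had 16.8 CPM per kilobase, so Srebf1 was 2.65 times higher. The ratio ran from 1.55 to 5.92 over the definitions of length and stayed above 1 in all 5. The exons of Srebf1 overlap those of Rai1 on the opposite strand by 109 bases, and Rai1 had a mean of 118 CPM. The gene has 12 annotated transcripts. The tables give 1 value for the gene, so its isoforms SREBP-1a and SREBP-1c were not told apart.

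All 6 genes of SREBP processing and retention had a row and lay above the median per kilobase of all genes, with a list median of 13.0 CPM per kilobase. Mbtps1, the site-1 protease gene, was the highest at 84.7 CPM per kilobase. Srebf2 and Scap followed, Scap at 15.2. Insig1 and Insig2, whose proteins retain SCAP in the endoplasmic reticulum, had 9.62 and 10.7. Mbtps2, the site-2 protease gene, was the lowest at 4.96 and close to the median of all genes.

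Of 11 other transcription factors known to act on lipogenic genes, 10 had a row and all 10 lay above the median per kilobase. Nr1h2, encoding the liver X receptor beta, had 34.2 CPM per kilobase, and Nr1h3, encoding the alpha form, had 6.11 and was the lowest of the list. Rxra, the partner of both receptors, had 25.5, and Usf2, a factor that binds E-box motifs, had 19.5. Mlxipl, the gene of the carbohydrate response factor ChREBP, had no row, while its partner Mlx had 6.46 CPM per kilobase. A gene without a row was absent from the tables as deposited, which is no measurement of 0.

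Acly (ENSMUSG00000020917, GRCm38 chr11:100476353-100528000, minus strand), which splits cytosolic citrate into acetyl-CoA and oxaloacetate, had a mean of 6.49 log2 CPM, or 89.7 CPM. At 20.3 CPM per kilobase it was the third of the 10 genes. Acss2 (ENSMUSG00000027605, GRCm38 chr2:155517948-155585724, plus strand), which makes acetyl-CoA from acetate in the cytosol and nucleus, had a mean of 4.18 log2 CPM and 6.20 CPM per kilobase. Acly was 3.27 times Acss2 per kilobase, with a range of 2.96 to 9.51 over the definitions of length. Acss1, the mitochondrial acetyl-CoA synthetase gene, had 0.272 CPM per kilobase, and Acss2 was 22.8 times this, with a range of 6.40 to 30.3. The mean of Acss1 was 0.982 CPM, at the 8.69th percentile, so this ratio rests on a low level.

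In the list of genes that supply citrate, acetyl-CoA and NADPH, all 7 had a row and 6 lay above the median per kilobase, the exception being Acss1. Cs, the citrate synthase gene, had 28.4 CPM per kilobase and Slc25a1, the mitochondrial citrate carrier, 22.3. Pgd of the pentose phosphate pathway, a source of NADPH, had 20.8. The list median of 17.3 was above that of the 10 genes.

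Acaca (ENSMUSG00000020532, GRCm38 chr11:84129672-84401651, plus strand) encodes the cytosolic carboxylase that feeds synthesis, and Acacb (ENSMUSG00000042010, GRCm38 chr5:114146535-114250761, plus strand) the form at the mitochondrial surface, whose malonyl-CoA restrains fatty acid oxidation. Acaca had a mean of 5.44 log2 CPM and 4.56 CPM per kilobase, just under the median per kilobase of all genes at 4.91. Part of its sequence also occurs in a pseudogene, described below. What this did to its level, its place beside that median and its ratios to other genes was not tested. Acacb had 3.81 log2 CPM and 1.60 CPM per kilobase, the lowest of the 10. Acaca was 2.85 times Acacb per kilobase, with a range of 1.74 to 19.5 over the definitions of length. The coding sequences were 72.03% identical with no identical run over 29 bases, so a 50-base read from one coding sequence does not match the other in full.

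Fasn (ENSMUSG00000025153, GRCm38 chr11:120805846-120824547, minus strand), the multienzyme that makes palmitate, had a mean of 6.71 log2 CPM, or 105 CPM, from a transcript of 10050 bases, the longest of the set. Per kilobase this was 10.5 CPM, which was 2.29 times Acaca with a range of 1.20 to 3.77. Among 10 genes listed for the control of ACC, FASN or SREBP-1, or of malonyl-CoA (Mlycd), 9 had a row and 6 lay above the median per kilobase. Akt1, a kinase of insulin signalling, had 42.8 CPM per kilobase, Stk11, the kinase upstream of AMPK, had 27.1, and Mid1ip1, which promotes polymerisation of ACC, had 14.8. Prkaa2, an AMPK catalytic subunit gene, was the lowest at 1.90, whereas Prkaa1, the gene of the other catalytic subunit, had 12.1. Thrsp had no row. The 4 genes of the separate mitochondrial pathway of fatty acid synthesis had a median of 2.94 CPM per kilobase, and Mecr, at 5.14, alone lay above the median of all genes. Mcat, Oxsm and Cbr4 had 3.33, 2.54 and 2.05.

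Elovl6 (ENSMUSG00000041220, GRCm38 chr3:129532355-129638495, plus strand), the elongase of palmitate, had a mean of 4.99 log2 CPM, or 31.7 CPM, and 5.33 CPM per kilobase. It was 0.136 times Elovl7, with a range of 0.126 to 0.338, and 0.244 times Elovl5, with a range of 0.152 to 0.584. Both remained above Elovl6 under all 5 definitions of length. Of the 13 other desaturases and elongation genes, 10 had a row and 9 lay above the median per kilobase, with a list median of 20.1. Hacd3 and Tecr, which complete the elongation cycle in the endoplasmic reticulum, had 65.9 and 51.4 CPM per kilobase, and Elovl7 had 39.1. Elovl4, an elongase of very long chains, was the lowest at 1.45. Elovl2, Elovl3 and Scd3 had no row.

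Scd2 (ENSMUSG00000025203, GRCm38 chr19:44293674-44306864, plus strand) was the highest of the 10 genes, with a mean of 8.82 log2 CPM, or 453 CPM, at the 98.6th percentile. It held 45.3% of the summed CPM of the 10 genes. Per kilobase it had 83.1 CPM, 7.95 times Fasn. This ratio was 0.984 with the median length of annotated transcripts, which for Fasn is 869 bases and shorter than its coding sequence. Scd1 (ENSMUSG00000037071, GRCm38 chr19:44394455-44407879, minus strand), the form that predominates in liver and fat, had 5.45 log2 CPM and 9.04 CPM per kilobase. Scd4 (ENSMUSG00000050195, GRCm38 chr19:44333092-44346743, plus strand), known from the heart, had 3.40 log2 CPM and 3.18 CPM per kilobase.

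Among the desaturases, Scd2 was 9.19 times Scd1 per kilobase and 26.1 times Scd4, and Scd1 was 2.84 times Scd4. This order held under all 5 definitions of length. The ratio of Scd2 to Scd1 ran from 2.04 to 10.3, that of Scd2 to Scd4 from 25.2 to 42.5, and that of Scd1 to Scd4 from 2.84 to 12.3. Scd2 made up 87.2% of the summed level per kilobase of the 3 genes, Scd1 9.49% and Scd4 3.34%. With the median length of annotated transcripts these shares were 65.4%, 32.0% and 2.59%. For Scd1 that length is 750 bases, shorter than its coding sequence of 1065 bases. The 3 genes listed as electron donors were the cytochrome b5 genes Cyb5a and Cyb5b and the reductase gene Cyb5r3. All were above the median per kilobase, at 55.6, 28.9 and 63.1 CPM. Whether each of them, Cyb5b in particular, serves the desaturases was not tested.

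The cluster spans 205 kb of chromosome 19 (GRCm38 chr19:44203269-44407879) and holds 9 annotated genes, of which Scd1, Scd2 and Scd4 had a row. Scd1 lies on the minus strand and the other Scd genes on the plus strand. Scd3, a gene known from skin, had no row although its coding sequence was 91.46% identical to that of Scd1. The remaining 5 are 2 pseudogenes and 3 non-coding RNA genes. Scd2 and Scd4, the highest and the lowest of the 3 measured desaturases, are neighbouring coding genes on the same strand.

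**Figure D3:**
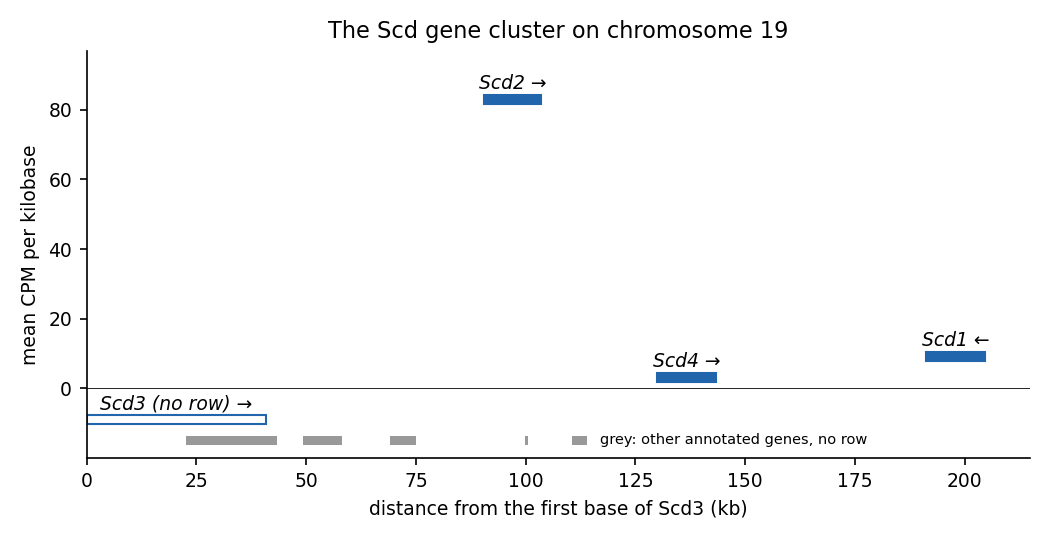
Map of the Scd cluster, with the distance from the first base of Scd3 in kilobases on the horizontal axis and the mean CPM per kilobase on the vertical axis, each bar spanning one annotated gene and arrows giving its strand. Scd2 stands at 83.1, Scd1 at 9.04 and Scd4 at 3.18, and the genes under the zero line had no row and therefore no value.

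The sequence each gene has in common with others was measured as the share of its distinct 50-base windows, over all its annotated transcripts, that also occur in a transcript of another gene on either strand. Fasn, Acly and Acacb had no such window of 11029, 5270 and 9583. Srebf1 had 1.33%, mostly in common with Rai1 on the opposite strand. Scd2 had 3.97%, Scd1 4.56% and Scd4 5.54%. Of these, Scd1 and Scd2 had 145 windows in common, Scd1 and Scd4 84, and Scd2 and Scd4 61. Acss2 had 6.13%, in transcripts of Gss, Ggt7 and Acss2os, which overlap it on the opposite strand, and Gss had a mean of 17.6 CPM and Ggt7 of 11.6 CPM. The libraries were prepared with a stranded kit, but whether strand was used in counting is not given in the sources used here.

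Acaca stood apart with 30.4%, of which 29.2% was in common with Gm5182, annotated as a processed pseudogene. These are shares of 17201 windows over all annotated transcripts of Acaca. The share within its 9513-base transcript, which set its level per kilobase, was not computed and may be larger. Gm5182 had its own row with a mean of 0.813 CPM beside 43.4 CPM for Acaca. With protein-coding genes alone the share of Acaca was 1.09%. Elovl6 had 3.98%, of which 3.46% was in common with Gm11295, another processed pseudogene and one without a row, and 0.523% with protein-coding genes. How reads that match several genes were counted is likewise not given, and these shares do not bound the error of a level, which also depends on the level of the partner gene. If reads fell evenly over its windows, those of Scd2 in common with Scd4 would hold 5.06 CPM, or 48.1% of the level of Scd4. The windows of Scd2 in common with Scd1 would hold 27.5% of the level of Scd1. These figures treat each read alone, whereas the libraries were sequenced as paired reads. With windows of 100 bases the shares of Scd1, Scd2 and Scd4 fell to 2.58%, 0.879% and 0.463%. For reads taken alone, the levels of Scd1 and Scd4 and their ratios to Scd2 are less certain than their own shares of windows would give. How far the other read of a pair settled its gene was not tested.

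**Figure D4:**
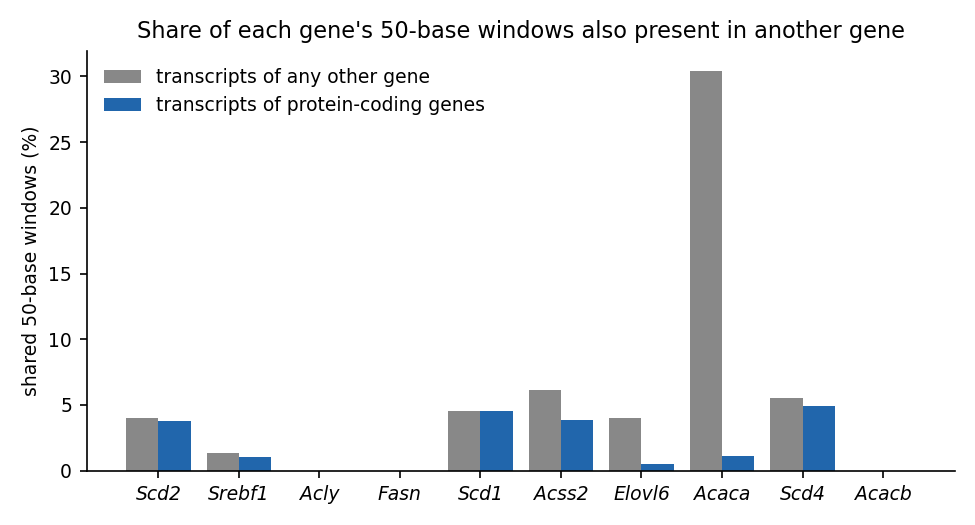
Bars give the percentage of each gene's distinct 50-base windows that also occur in a transcript of any other gene (grey) or of another protein-coding gene (blue), in the order of level per kilobase. Acaca reaches 30.4% and 1.09%, Scd4 5.54% and 4.95%, and Acly, Fasn and Acacb have none.

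Downstream, the 10 genes that activate fatty acids and build glycerolipids all had a row, and 6 lay above the median per kilobase of all genes. The list median was 7.21 CPM per kilobase. Acsl5 and Acsl4, which activate long-chain fatty acids, had 9.84 and 9.35, and Dgat1, the last step of triglyceride synthesis, had 8.62. Dgat2, with the same reaction, had 1.89. Pnpla3, a lipid droplet protein gene and a known SREBP-1 target, was the lowest at 1.15.

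Side by side, the list of electron donors had the highest median per kilobase of the 8 related lists, at 55.6, and mitochondrial fatty acid synthesis the lowest, at 2.94. The 10 genes, at 7.62, were close to the glycerolipid list. Of 64 related genes listed, 59 had a row.

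**Figure D5:**
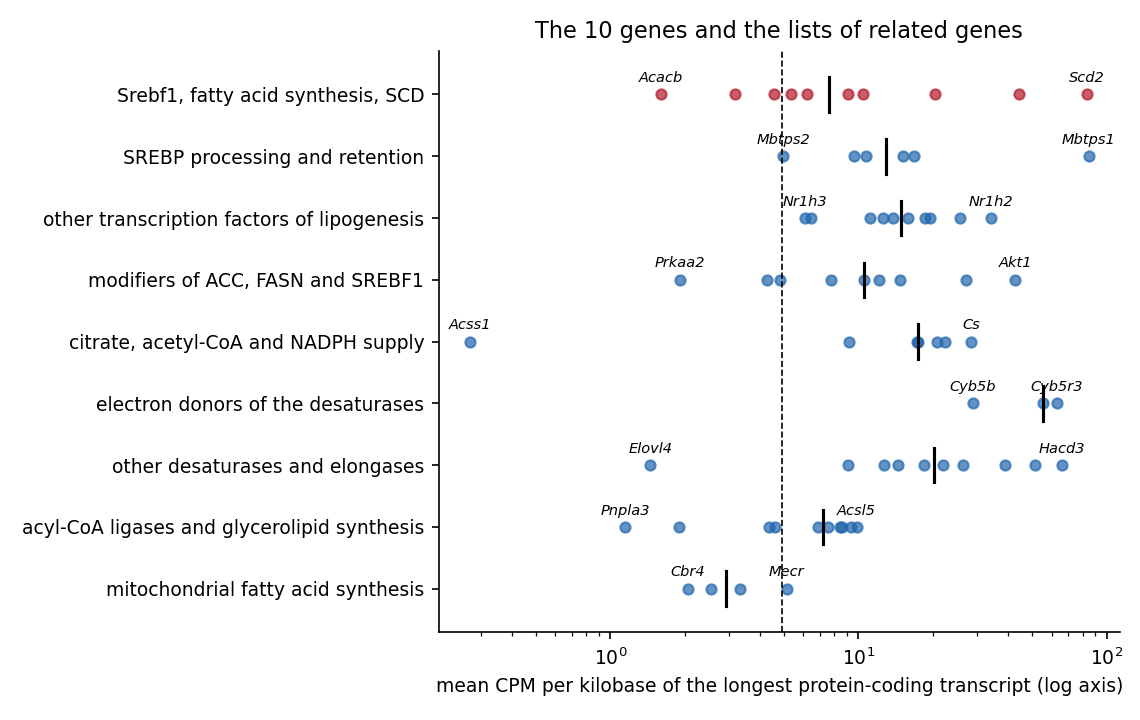
Each point is the mean CPM per kilobase (log axis) of one gene over all 12 libraries, for the 10 genes (red) and 8 lists of related genes (blue), with the highest and lowest gene of each list named, black bars for the list medians and a dashed line for the median of all genes at 4.91. Scd2 and Mbtps1 are the highest points at 83.1 and 84.7.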

How the data were processed

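RNA of 12 libraries was sequenced by the authors as paired reads of 50 bases from a stranded, low-input total RNA kit, aligned to GRCm38/mm10 with HISAT2, converted to CPM with TMM normalization and fitted with limma and voom in a design of 2 genotypes by 2 sexes. Versions, gene annotation, counter, strand setting and treatment of reads that match several genes are not given in the sources used here. The authors deposited 3 tables, for genotype, sex and their interaction, each with 15838 genes. In the deposited tables the mean expression is on the log2 scale, as the authors' mean log2 CPM over all libraries, and it was equal in the 3 tables. The other columns hold the authors' own comparisons (log fold change, moderated t, p-value, adjusted p-value and log odds) and were not used. The mean over all libraries holds no spread between them, so no interval is given. Depth per library is also unknown.

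CPM was computed as 2 to the power of the mean, which is a geometric mean, and divided by the length of the longest protein-coding transcript in GENCODE M21, which held 15824 of the genes by identifier. A percentile is the share of all genes with a lower mean. Coding sequences were aligned globally (Biopython 1.88; match 1, mismatch -1, gap opening -4, extension -0.5). The genes and lists were chosen with earlier results of these data known. All 10 genes, every list's counts, the 3 highest and the lowest gene of each related list, and Insig1, Srebf2, Scap, Mlxipl, Nr1h2, Nr1h3, Scd3 and Slc4a11 were named by rule. Insig2, Mlx, Elovl2, Elovl3, Elovl5, Dgat2, Prkaa1, Thrsp and the genes that overlap or resemble one of the 10 were named in addition, after their values were seen. Percentile and window steps were tested on simulated data. Alternatives were other lengths, other background genes and windows of 35 and 100 bases.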

Additional observations from a re-analysis of the deposited data

How the results depend on the processing

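The count of the 10 genes above the median of all genes, 9, was 7 among protein-coding genes, 8 and 6 among genes with a mean of at least 1 and 10 CPM, and 7 per kilobase. The counts above the median for the lists of related genes were not repeated with other background genes. Of the 10 places in the order per kilobase, 3 were kept with the median length of annotated transcripts, 3 with the longest coding sequence and 6 with the mean length of protein-coding transcripts. The number of genes with under 5% of their windows in common with another gene was 7 for windows of 50 bases, 4 for 35 bases, 9 for 100 bases and 10 with transcripts of protein-coding genes only. A value with no error counted as moved past 1.5 times: 17 of 40 levels per kilobase, 6 of 40 percentiles and 12 of 30 shares of windows moved, and none of the 20 means taken from the other tables. Leaving out a replicate was not possible, because the column used is 1 mean over all libraries. No paired analysis was possible because no column used carries replicate numbers and no result comes from a test. The depth behind each mean is unknown, and its error was not analysed here.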
